A study of Mus musculus with 23 samples.

Results

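A set of 9 genes of leukocyte adhesion was followed in sorted mouse neutrophils, chosen for their function by symbol and NCBI gene identifier: *Selplg*, *Itgam*, *Itgal*, *Itgax*, *Itgb2*, *Itga4*, *Icam1*, *Cd44* and *Cd47*. All were found among the 21878 genes of the deposited tables. RNA-Seq libraries came from 2 experiments. In the tissue comparison, neutrophils of WT C57BL/6J mice were taken from lung, peripheral blood (PB) and bone marrow (BM), with 3 libraries each. In the *Piezo1* experiment, WT mice and *Piezo1* conditional-KO (*Piezo1*-cKO) mice each gave neutrophils of lung and of PB, with 2 libraries for each tissue and genotype. The mice were untreated adults of both sexes. The cKO mice carried floxed *Piezo1* alleles and *Vav1*-iCre, a driver active throughout the hematopoietic system rather than in neutrophils alone. The exact genotype of the WT controls of these libraries was not given in the sources used here. For imaging of the lung, the paper names WT controls with floxed *Piezo1* alleles. All cells were sorted as CD45+CD11b+Ly6G+, so the protein of *Itgam* (CD11b) was part of the gate. PB and lung cells were enriched by negative selection before the sort, and only lung was digested with collagenase. The lung libraries therefore differ from the others in handling as well as in tissue, and these cannot be told apart.

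Neutrophils leave the blood stream, or are held in it, through a sequence of adhesive steps. Selectins on activated endothelium catch glycans carried by PSGL-1 and CD44, which slows the cell to a roll. Chemokine signals then switch integrins to a binding state, and the beta2 integrins, each made of an alpha subunit paired with the shared beta2 subunit, bind ICAM-1 and other ligands and arrest the cell. ICAM-1 is best known on endothelium and is induced by inflammatory signals, and leukocytes can make it too. The lung capillary bed holds a large pool of neutrophils at rest.

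Recovered read pairs per library numbered 16502148 to 19330774 for the tissue comparison. They numbered 9621120 to 15034817 for the *Piezo1* experiment. The members had 90 to 69319 reads per library, so counting error was small. Values are FPKM (fragments of a gene scaled by its length and by the mapped fragments of the library) and log2 differences are of FPKM + 1. The 3 PB libraries of the tissue comparison differed more from each other than those of the other groups, with replicate 3 apart (mean chi-square per gene of 24.6 and 40.9 against replicates 1 and 2, and 4.72 between those). *Piezo1* itself had 3 to 10 reads in each of the 8 libraries of the *Piezo1* experiment, with 8 in both WT and 4 to 7 in the cKO lung libraries and 5 in both WT and 3 to 10 in the cKO PB libraries. A loss of *Piezo1* was not detectable at this depth, and counts over the whole gene would also include exons that the deletion leaves in place. By other assays of BM neutrophils, the paper reports efficient deletion in transcript and protein. It also reports that cKO neutrophils lacked the calcium response to the PIEZO1 agonist Yoda1. Neutrophil markers (8 of 8 genes present) summed to 43709 to 147860 FPKM per library. Endothelial markers (5 genes) summed to at most 0.781 FPKM, dendritic cell markers (6) to at most 1.26, platelet markers (6) to at most 3.72 and lymphocyte and NK markers (9) to at most 7.19. Of 10 monocyte and macrophage markers, which summed to 120.2 to 178.7 FPKM, *Csf1r* and *Adgre1* gave most of the signal in lung and PB, while *Ccr2* was at 0 in all 8 libraries of the *Piezo1* experiment and reached at most 0.294 FPKM in the tissue comparison.

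*Icam1* (NCBI gene 15894, chromosome 9 of GRCm38, 21015940 to 21028814) separated the 3 tissues more widely than any other member. Its FPKM was 210.4, 219.5 and 211.5 in the lung libraries, 12.1, 10.9 and 11.6 in PB, and 1.99, 2.22 and 1.93 in BM. The ranges of the tissues lay far apart, and the order was lung, PB, BM in every library. *Icam1* rose in lung against PB by 4.10 on the log2 scale (SE 0.06, adjusted p = 9.11e-10, limma) and against BM by 6.14 (SE 0.04, adjusted p = 1.84e-14, limma), and in PB against BM by 2.04 (SE 0.07, adjusted p = 1.27e-07, limma). On the scale of FPKM + 1 these were 17.1-fold, 70.6-fold and 4.12-fold. The same lung libraries held 0.554 to 0.781 FPKM over 5 endothelial markers. Those markers came to 0.251 to 0.334 FPKM over the PB libraries and to 0.0724 to 0.128 over the BM libraries. *Cdh5*, *Cldn5* and *Tek* were at 0 in all 3 PB libraries, while *Vwf* averaged 0.239 FPKM there and 0.252 in lung, and *Kdr* 0.0431 and 0.0686. The 4 epithelial markers also differed between these tissues, at 1.52 to 2.82 FPKM in lung, 0.172 to 0.208 in PB (with *Sftpc*, *Scgb1a1* and *Epcam* at 0) and 2.04 to 2.82 in BM. The 6 platelet markers came to 2.91 to 3.44 FPKM in BM, 1.28 to 1.56 in lung and 0.219 to 0.414 in PB. The part of RNA from any of these cells in the lung level of *Icam1* was not tested.

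The promoter of *Icam1* is shown because this gene changed most, and because it alone, among the 6 members with a promoter window at hand, matched any of 3 short runs searched on both strands. The window is chr9:21015690-21015989 of GRCm38.p6 (RefSeq), on the plus strand, from 250 bases before the start site to 50 after it, and the capitals mark the matches to the kappaB-like run GGNNNTTCC.
*Icam1* promoter: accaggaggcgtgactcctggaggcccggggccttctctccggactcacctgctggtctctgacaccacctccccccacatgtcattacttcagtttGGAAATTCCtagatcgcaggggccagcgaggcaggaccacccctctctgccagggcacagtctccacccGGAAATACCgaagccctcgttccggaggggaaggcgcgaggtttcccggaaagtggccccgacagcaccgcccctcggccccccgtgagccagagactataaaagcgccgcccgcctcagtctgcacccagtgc
The first match begins at position -153 from the start site and reads as the run on both strands, and the other begins at -84 and reads as the run on the minus strand. Of these 6 members (7 windows), 1 held the run, as did 18.5% of 32851 promoters of the same length. The PU.1-like run GAGGAAGT was in 0 of the 6 members and 3.2% of all promoters, and the C/EBP-like run TTGCNNAA in 0 of 6 and 10.8%. A match is a description of these letters and no evidence that a factor binds there.

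**Figure D1:**
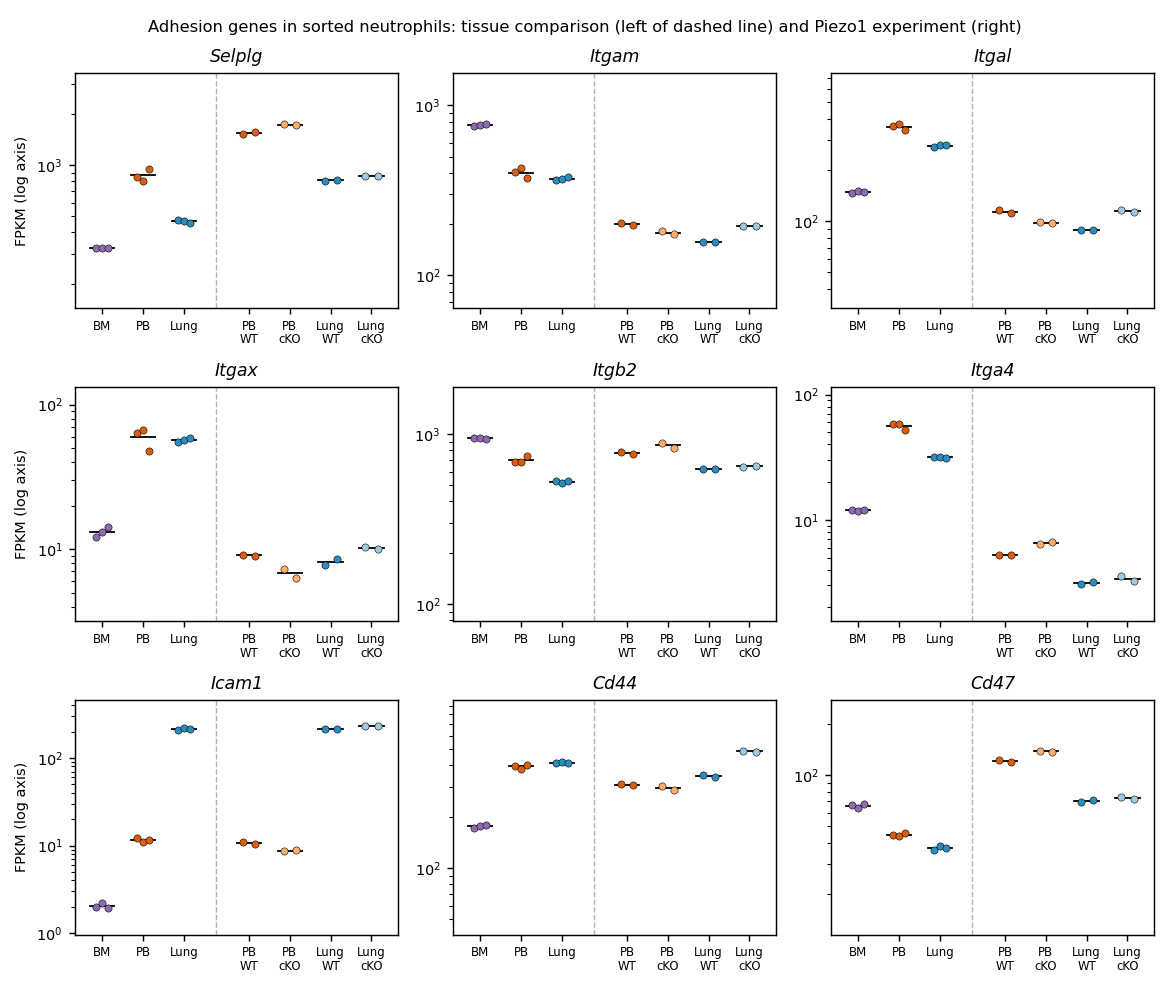
FPKM of the 9 members on log axes, 1 panel per gene, in BM, PB and lung of the tissue comparison (left of the dashed line) and in PB and lung of WT and *Piezo1*-cKO mice (right). Points are libraries and bars are group means. *Icam1* stands near 213 FPKM in WT lung of both experiments and near 11 in PB.

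Among the ligands of selectins, *Selplg* (PSGL-1, the main P-selectin ligand of leukocytes) was highest in PB. Its FPKM was 842.9, 805.0 and 949.9 in PB, 473.7, 469.3 and 454.3 in lung, and 322.1, 325.1 and 323.6 in BM. No group overlapped another. *Selplg* rose in PB against BM by 1.41 (SE 0.07, adjusted p = 6.64e-07, limma). Lung lay between PB and BM, with a log2 difference of -0.89 from PB (SE 0.07, adjusted p = 7.43e-06, limma) and of 0.52 from BM (SE 0.02, adjusted p = 3.54e-09, limma), both short of the threshold of 1 on the log2 scale. Once values were rescaled by the median ratio between libraries, the difference from PB was -0.27 (adjusted p = 0.0191, limma), and that from BM was 1.36 and passed the threshold.

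*Cd44*, a hyaluronan receptor that also carries selectin ligands, was higher in PB and lung than in BM. Its FPKM was 411.1, 416.6 and 411.9 in lung, 398.5, 382.4 and 403.6 in PB, and 171.0, 175.2 and 179.9 in BM. It rose in lung against BM by 1.23 (SE 0.02, adjusted p = 1.30e-11, limma) and in PB against BM by 1.17 (SE 0.05, adjusted p = 3.04e-07, limma). Between lung and PB the difference was 0.07 (SE 0.05, adjusted p = 0.237, limma), although the lung libraries were all above the PB libraries. This value depended on the scale, and was 0.69 once rescaled (adjusted p = 1.15e-05, limma) and 0.71 with DESeq2.

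The subunits of the beta2 integrins did not move as a block. *Itgb2* encodes the shared beta2 chain, *Itgam* the alpha chain of Mac-1 (a receptor for complement fragments and ICAM-1), *Itgal* that of LFA-1 (a receptor for ICAM-1) and *Itgax* that of CD11c/CD18, best known on dendritic cells and macrophages. The chromosome 7 genes of the alpha chains lie within a short stretch of GRCm38, *Itgal* at 127296139 to 127335137, *Itgam* at 128062640 to 128118491 and *Itgax* at 128129526 to 128150657. Relative to BM, 2 of these 3 neighbours (*Itgal* and *Itgax*) were higher in PB and lung while *Itgam* was lower.

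*Itgb2* was highest in BM, at 948.1, 941.8 and 929.7 FPKM, and stood at 684.9, 682.9 and 742.8 in PB and at 526.3, 516.7 and 527.8 in lung. *Itgam* followed the same order from BM, at 752.9, 765.9 and 773.2, to PB, at 405.7, 426.5 and 375.3, and lung, at 363.2, 371.1 and 378.6, where the ranges of PB and lung overlapped. *Itgam* fell in lung against BM by 1.04 (SE 0.02, adjusted p = 2.23e-11, limma), but this was -0.34 relative to the median gene and no longer past the fold threshold once values were rescaled. The differences of *Itgam* from BM in PB, -0.92 (SE 0.06, adjusted p = 3.54e-06, limma), and of *Itgb2* in lung, -0.84 (SE 0.02, adjusted p = 2.70e-11, limma), were under the threshold, and that of *Itgb2* was -0.14 relative to the median gene and 0.01 with size factors on reads.

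*Itgal* was at 147.3, 151.6 and 148.4 FPKM in BM, 365.4, 371.0 and 344.8 in PB, and 274.5, 279.6 and 280.5 in lung, with no overlap between groups. It rose in PB against BM by 1.27 (SE 0.05, adjusted p = 2.09e-07, limma) and was 0.90 higher in lung (SE 0.02, adjusted p = 8.55e-11, limma), or 1.60 relative to the median gene. *Itgax* was at 12.1, 13.0 and 14.2 FPKM in BM, 63.7, 66.6 and 47.4 in PB, and 55.1, 57.1 and 58.7 in lung. The low PB value is that of replicate 3, and it placed PB on both sides of lung. *Itgax* rose by 2.08 in PB (SE 0.13, adjusted p = 2.12e-06, limma) and by 2.04 in lung (SE 0.05, adjusted p = 1.48e-10, limma) against BM. The 6 dendritic cell markers summed to 0.988 to 1.26 FPKM in BM, 0.472 to 1.05 in PB and 0.334 to 0.633 in lung. Most of this was *Clec9a*, with means of 1.13, 0.709 and 0.359 FPKM, whereas *Flt3* had 0.00915, 0.0463 and 0.0731, *Zbtb46* 0.0193, 0.0138 and 0.0513, and *Cd209a* 0.0267 in lung only, with *Xcr1* and *Siglech* at 0 in all 9 of these libraries. Of the 10 monocyte and macrophage markers, 6 were tested, and 2 rose and 4 fell against BM in PB and in lung. *Csf1r* averaged 42.3 FPKM in BM, 132.6 in PB and 97.4 in lung, and *Adgre1* 9.90, 29.7 and 26.8. The 4 that fell (*C1qa*, *C1qb*, *C1qc* and *Ear2*) passed the filter of 1 FPKM only through BM and could only fall. The part of the dendritic cell, monocyte and macrophage markers in the level of *Itgax* was not tested.

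Between lung and PB, no beta2 subunit passed the test for a change. The log2 differences were -0.12 for *Itgam* (adjusted p = 0.107, limma), -0.37 for *Itgal* (adjusted p = 0.000193), -0.04 for *Itgax* (adjusted p = 0.758) and -0.42 for *Itgb2* (adjusted p = 0.000127), and all 4 became positive once values were rescaled by the median ratio between libraries. The direction of these differences is thus set by the scale, since the median gene itself differed by -0.54.

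Ratios within a library do not depend on that scale, but they differ between the 2 experiments and are not read as proportions of the subunits. In WT lung of the *Piezo1* experiment *Itgam* was 0.254 and *Itgal* 0.143 of *Itgb2*. The values that follow are of the tissue comparison. The FPKM of *Itgam* relative to *Itgb2* was 0.813 ± 0.0188 in BM, 0.574 ± 0.0617 in PB and 0.709 ± 0.0160 in lung (mean ± SD, n = 3). *Itgal* relative to *Itgb2* was 0.159 ± 0.00292 in BM, 0.514 ± 0.0432 in PB and 0.531 ± 0.00987 in lung. *Itgax* relative to *Itgb2* was 0.0140 ± 0.00123, 0.0848 ± 0.0183 and 0.109 ± 0.00358. *Itgal* and *Itgax* therefore gained on *Itgb2* outside BM by more than the spread between libraries, while *Itgam* was lower against *Itgb2* in PB and lung than in any BM library. *Itgal* reached 0.896 ± 0.0246 of *Itgam* in PB and 0.750 ± 0.00800 in lung, against 0.195 ± 0.00306 in BM. PB replicate 3 gave the lowest ratio of its group for each alpha subunit. No test was run on these ratios.

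**Figure D2:**
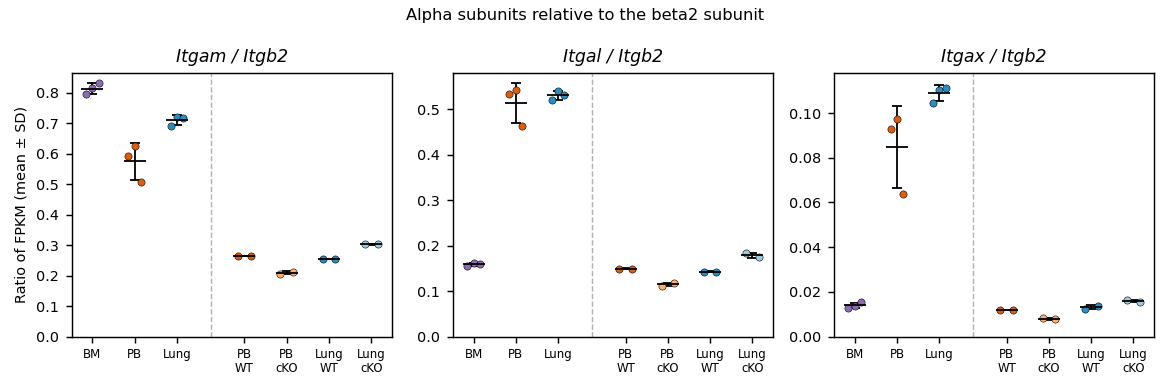
FPKM of *Itgam*, *Itgal* and *Itgax* divided by that of *Itgb2* in each library, on axes that start at 0. Points are libraries and bars are means ± SD (n = 3 left of the dashed line, n = 2 right of it). In the tissue comparison *Itgal* and *Itgax* are low against *Itgb2* in BM only, and in the *Piezo1* experiment the cKO libraries are above WT in lung and below WT in PB.

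*Itga4* encodes the alpha chain of VLA-4, which pairs with beta1 or beta7 and binds VCAM-1, and is better known on lymphocytes and monocytes than on neutrophils. Its FPKM was 58.0, 58.0 and 52.6 in PB, 32.0, 31.5 and 31.4 in lung, and 12.1, 11.8 and 12.1 in BM, with no overlap between groups. *Itga4* rose in PB against BM by 2.14 (SE 0.06, adjusted p = 3.28e-08, limma) and in lung against BM by 1.33 (SE 0.04, adjusted p = 2.06e-10, limma). Lung differed from PB by -0.81 (SE 0.06, adjusted p = 3.49e-06, limma), or -0.27 relative to the median gene. Its partners *Itgb1* and *Itgb7* stood at 13.3 and 20.5 FPKM in PB, and at 12.8 and 10.2 in lung. The part of the monocyte and macrophage markers given above, or of lymphocyte markers, in the level of *Itga4* was not tested.

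*Cd47*, the ligand of SIRP-alpha that restrains phagocytosis, went the other way from *Itga4*. Its FPKM was 66.4, 63.7 and 67.3 in BM, 44.3, 43.9 and 45.6 in PB, and 36.4, 38.2 and 37.4 in lung. The differences from BM were -0.55 in PB (SE 0.05, adjusted p = 1.91e-05, limma) and -0.80 in lung (SE 0.03, adjusted p = 5.39e-09, limma), under the threshold of 1. Lung differed from PB by -0.25 (adjusted p = 0.00155, limma), but with rescaled values *Cd47* was 0.36 higher in lung than in PB, and 0.02 higher than in BM.

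Of the 9 members, 6 rose and 0 fell in PB against BM, where 7.85% of 8237 genes rose and 14.1% fell. In lung against BM, 4 rose and 1 fell, beside 9.86% and 36.0% of 8236 genes. With rescaled values 6 rose and 0 fell, *Selplg* and *Itgal* joining and *Itgam* leaving, beside 19.0% and 14.3% of genes. In lung against PB, *Icam1* alone rose and no member fell, beside 7.75% and 19.5% of 7577 genes, and the same held with rescaled values, beside 12.1% and 6.15%. By the adjusted p alone, without the fold threshold, 6 of 9 members differed between lung and PB, but so did 85.5% of all genes. The members' median log2 difference was 1.27 in PB against BM, 0.90 in lung against BM and -0.25 in lung against PB, where the medians of all genes were -0.12, -0.70 and -0.54. Markers of immature neutrophils also differed between BM and the other tissues. The 7 genes summed to 65.5 to 70.3 FPKM in BM, 2.11 to 3.02 in PB and 2.84 to 4.01 in lung. Most of the BM sum was *Fcnb* (mean 34.4), *Mki67* (16.2) and *Top2a* (15.8), and these 3 fell in both PB and lung. *Fcnb* and *Top2a*, and in PB *Mki67*, passed the filter of 1 FPKM only through BM and could only fall. *Prtn3*, the other gene tested, averaged 1.50 FPKM in BM, 2.20 in PB and 1.23 in lung. *Mpo*, *Elane* and *Ctsg* were under that filter in each tissue. Of the 8 general neutrophil markers, 5 fell and 1 rose in PB against BM and 7 fell and 1 rose in lung against BM. Their part in the differences of the members was not tested. These are bulk values per sorted population, in which fewer cells that express a gene and less RNA per cell cannot be told apart.

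**Figure D3:**
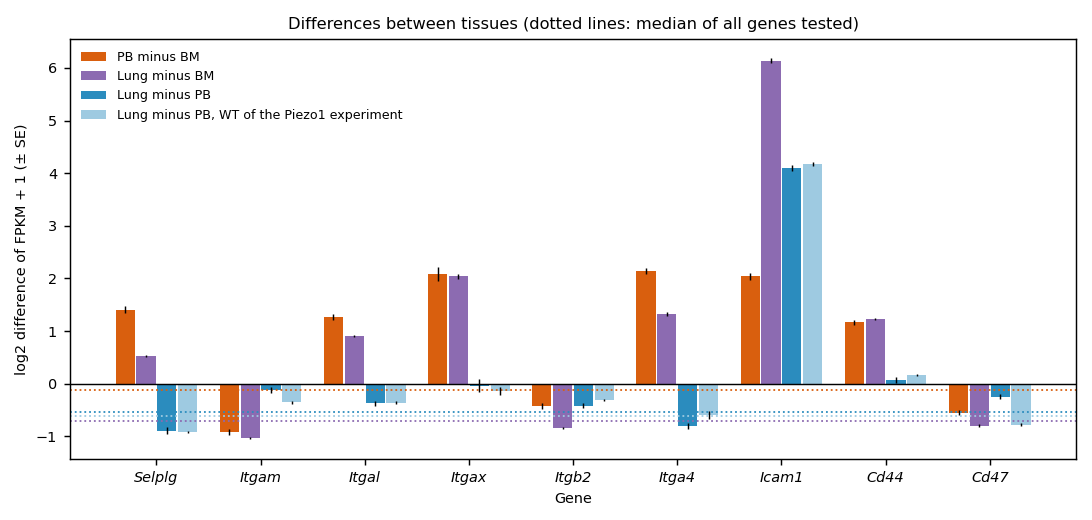
Log2 difference of FPKM + 1 (± SE) of each member between tissues, for PB minus BM, lung minus BM and lung minus PB of the tissue comparison and lung minus PB of the WT libraries of the *Piezo1* experiment. Dotted lines give the median of all genes tested in each. *Icam1* is the tallest bar in lung, and *Selplg*, *Itgal*, *Itgax*, *Itga4* and *Cd44* stand above BM in both PB and lung.

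The WT libraries of the *Piezo1* experiment gave lung against PB anew, in 2 libraries each that the tissue comparison did not use. *Icam1* was at 213.0 and 213.5 FPKM in lung and at 11.05 and 10.54 in PB. It rose by 4.18 (SE 0.04, adjusted p = 4.97e-10, limma), or 18.2-fold on the scale of FPKM + 1. The 4 epithelial markers summed to 5.76 to 6.43 FPKM in these lung libraries and to 0.533 to 0.681 in PB. Only *Scgb1a1* was tested, and it was called higher in lung. *Scgb1a1* was at 0 in both PB libraries and passed the filter of 1 FPKM only through lung, so it could only be called higher. *Sftpb*, which was not tested, had a higher mean in PB than in lung. The part of these markers in the lung level of *Icam1* was not tested. *Icam1* was again the only member past both thresholds, while 7.50% of 7143 genes rose and 26.5% fell (13.0% and 9.03% with rescaled values), and 8 of 9 members were past the adjusted p alone, as were 89.0% of all genes. *Selplg* was at 803.5 and 816.7 FPKM in lung against 1518.0 and 1550.6 in PB, a difference of -0.92 (adjusted p = 1.84e-08, limma) that was -0.19 once rescaled. *Itga4* was at 3.11 and 3.20 FPKM against 5.23 and 5.24, a difference of -0.59 (adjusted p = 0.000262, limma) that was 0.03 relative to the median gene and 0.01 with size factors on reads. *Cd47* differed by -0.78, at 69.9 and 71.0 FPKM against 123.2 and 119.7, but by -0.06 once rescaled (adjusted p = 0.176, limma). *Cd44* was 0.17 higher, at 350.7 and 344.0 FPKM against 311.9 and 305.2, and 0.90 higher once rescaled. The beta2 subunits differed by -0.35 (*Itgam*), -0.36 (*Itgal*), -0.14 (*Itgax*) and -0.31 (*Itgb2*), and again all 4 turned positive when rescaled, beside a median gene at -0.62.

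The genotype comparison asks whether loss of *Piezo1* in the hematopoietic lineage goes with other levels of these genes. In lung, no member passed both thresholds, where 0.995% of 6434 genes did. Every member had a higher mean in cKO than in WT lung, and in 6 the adjusted p was under 0.05, all of them higher in cKO, beside 35.0% of all genes higher and 15.8% lower by that rule. This count depended on the scale. With rescaled values 3 members were higher (*Itgam*, *Itgal* and *Cd44*) and 1 was lower (*Itgb2*, -0.06, adjusted p = 0.0451, limma), beside 23.7% and 24.8% of all genes. *Cd44* differed most, at 486.6 and 483.2 FPKM in cKO against 350.7 and 344.0 in WT, a log2 difference of 0.48 (SE 0.02, adjusted p = 3.25e-05, limma). *Itgal* was at 116.8 and 113.2 FPKM against 88.5 and 88.3, a difference of 0.37 (SE 0.03, adjusted p = 0.000216, limma), and *Itgam* at 194.6 and 195.5 against 157.4 and 157.4, a difference of 0.31 (SE 0.03, adjusted p = 0.000207, limma). In each of these genes the cKO libraries lay above the WT libraries, as they did in every other member. The median gene was also 0.09 higher in cKO, and the share of all genes without overlap was not counted. The lack of overlap therefore does not mark out the members.

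*Itgax* was at 10.33 and 10.03 FPKM in cKO lung against 7.76 and 8.51 in WT, a difference of 0.29 (SE 0.07, adjusted p = 0.0136, limma). It was 0.19 once rescaled (adjusted p = 0.0626, limma), 0.21 with DESeq2 (adjusted p = 0.145), 0.23 without WT replicate 1 (adjusted p = 0.0686, limma) and 0.27 without cKO replicate 1 (adjusted p = 0.0705, limma). *Icam1*, at 230.1 and 230.6 FPKM against 213.0 and 213.5, differed by 0.11 (SE 0.02, adjusted p = 0.00854, limma), close to the 0.09 of the median gene, and was at -0.00 when rescaled. *Selplg* differed by 0.08 (adjusted p = 0.0125, limma), or 0.07 without WT replicate 1 (adjusted p = 0.0918, limma), and turned to -0.03 when rescaled. The adjusted p was over 0.05 for *Itgb2* (0.05, adjusted p = 0.0596), *Itga4* (0.08, adjusted p = 0.490) and *Cd47* (0.06, adjusted p = 0.221), and each of these 3 was below 0 when rescaled. Monocyte and macrophage markers moved with genotype in lung, from 120.2 to 122.7 FPKM in WT to 152.4 to 152.8 in cKO, with 3 of 3 tested higher, 1 of them (*Ear2*) past both thresholds, and *Ccr2* and *C1qa* at 0 in both genotypes. *Ear2* was at 0.0938 to 0.372 FPKM in WT and at 2.15 to 3.13 in cKO. It passed the filter of 1 FPKM only through the cKO libraries, so it could only be called higher. The part of these markers in the differences of the members was not tested.

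In PB, again no member passed both thresholds, where 3.65% of 7256 genes did. By the adjusted p alone, 4 members were higher in cKO and 4 lower, beside 26.5% of all genes higher and 23.2% lower. The alpha chains of the beta2 integrins and *Icam1* were the lower ones. *Itgam* was at 181.4 and 175.2 FPKM in cKO against 204.1 and 199.0 in WT (-0.18, SE 0.04, adjusted p = 0.0137, limma), and *Itgal* at 98.9 and 97.3 against 116.4 and 111.8 (-0.22, SE 0.05, adjusted p = 0.00803, limma). *Itgax* was at 7.23 and 6.33 FPKM against 9.14 and 8.93 (-0.37, SE 0.09, adjusted p = 0.0114, limma) and *Icam1* at 8.59 and 8.92 against 11.05 and 10.54 (-0.27, SE 0.07, adjusted p = 0.0198, limma). The genotypes did not overlap for these 4 genes, but neither did they for any other member, so this does not mark them out. The share of all genes without overlap was not counted.

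The members higher in cKO PB were *Itga4* (0.28, SE 0.08, adjusted p = 0.0253, limma), *Cd47* (0.18, adjusted p = 0.0126), *Selplg* (0.16, adjusted p = 0.00796) and *Itgb2* (0.16, adjusted p = 0.0241). *Itgb2* was at 881.4 and 826.7 FPKM in cKO PB against 777.6 and 755.5 in WT, so that the beta2 chain and its alpha chains differed in opposite directions. *Cd44* was at 303.2 and 285.3 FPKM against 311.9 and 305.2 (-0.07, adjusted p = 0.244, limma). Erythroid markers differed between the same PB libraries, at 24.8 to 26.7 FPKM over 5 genes in WT and 1011 to 1136 in cKO, with 5 of 5 past both thresholds. Of these, *Alas2*, at 0 in WT, and *Hbb-bt*, at 0.951 to 1.69, passed the filter of 1 FPKM only with the cKO libraries, where they were high. The part of the erythroid markers in the differences of the members was not tested.

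The genotype difference was not the same in both tissues for 5 of the 9 members, by a test of the difference itself over all 8 libraries, beside 48.2% of 7560 genes. The difference in lung exceeded that in PB by 0.66 for *Itgax* (SE 0.11, adjusted p = 0.00167, limma), 0.59 for *Itgal* (SE 0.05, adjusted p = 0.000108), 0.55 for *Cd44* (SE 0.05, adjusted p = 0.000114), 0.48 for *Itgam* (SE 0.05, adjusted p = 0.000133) and 0.38 for *Icam1* (SE 0.06, adjusted p = 0.00122). In *Itgam*, *Itgal*, *Itgax* and *Icam1* the cKO libraries were above WT in lung and below WT in PB, although *Icam1* in lung had no difference left once rescaled. For *Selplg*, *Itgb2*, *Itga4* and *Cd47* the lung difference minus that of PB was -0.08 to -0.20, with adjusted p of 0.0647 to 0.158 (limma). Once rescaled it was -0.21 for *Selplg* (adjusted p = 0.00120, limma), -0.23 for *Itgb2* (adjusted p = 0.00546), -0.25 for *Cd47* (adjusted p = 0.00415) and -0.28 for *Itga4* (adjusted p = 0.0578). With rescaled values 5 members were thus called higher and 3 lower, beside 22.8% and 25.4% of all genes. The ratios to *Itgb2* restate these values from the same libraries and are no separate support. *Itgam* (4682 bases) and *Itgal* (5422) have longer transcripts than *Itgb2* (2948), and the ratios were not corrected for the length trend given below. *Itgam* relative to *Itgb2* was 0.303 ± 0.00178 in cKO and 0.254 ± 0.000909 in WT lung, and 0.209 ± 0.00439 in cKO and 0.263 ± 0.000587 in WT PB (mean ± SD, n = 2). *Itgal* relative to *Itgb2* was 0.179 ± 0.00550 against 0.143 ± 0.000243 in lung and 0.115 ± 0.00388 against 0.149 ± 0.00124 in PB.

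**Figure D4:**
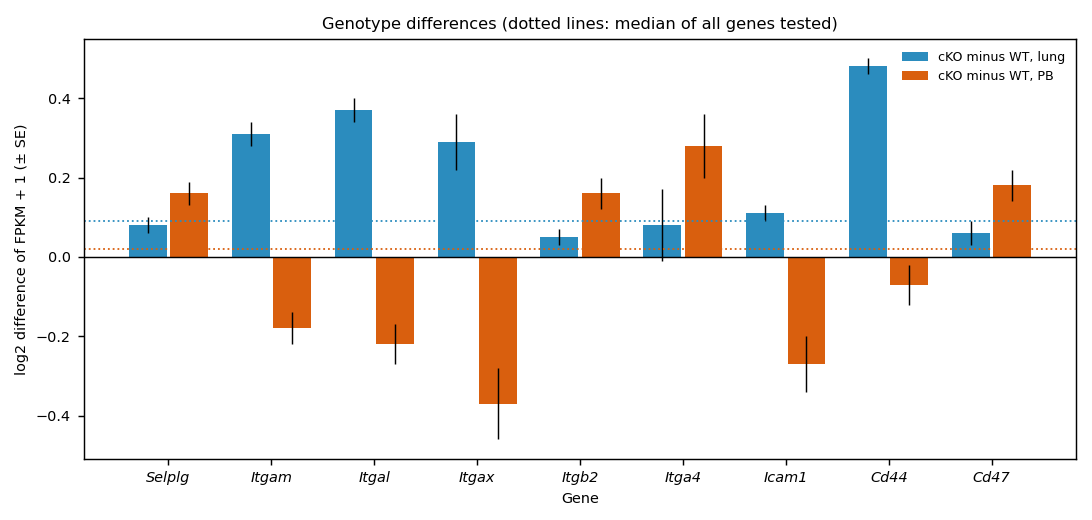
Log2 difference of FPKM + 1 (± SE) between *Piezo1*-cKO and WT neutrophils of each member, in lung and in PB (n = 2 libraries for each tissue and genotype). Dotted lines are the medians of all genes tested, 0.09 in lung and 0.02 in PB. *Itgam*, *Itgal*, *Itgax*, *Icam1* and *Cd44* are above 0 in lung and below 0 in PB.

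Transcript length moved with the genotype difference in lung. Over 6434 genes the correlation of the log2 difference with log2 length was 0.19, a description across genes that share libraries, and the median difference went from -0.00 in the shortest quartile of transcripts to 0.06, 0.14 and 0.18 in the longest. In PB the correlation was -0.07. The members with the largest differences in lung were among the longer ones, *Cd44* (5746 bases), *Itgal* (5422), *Itgam* (4682) and *Itgax* (4025), while *Icam1* (2540), *Selplg* (2815), *Itgb2* (2948) and *Cd47* (3159) were shorter. *Itga4*, the longest at 9832 bases, differed by 0.08 only. A correction for the length trend in each library, chosen after the data were seen, also removes the shift of the median gene, so it is set beside rescaling alone. Rescaling took *Cd44* from 0.48 to 0.37, *Itgal* from 0.37 to 0.26, *Itgam* from 0.31 to 0.20 and *Itgax* from 0.29 to 0.19, and the length correction took them to 0.29, 0.18, 0.12 and 0.14. In both, the adjusted p stayed under 0.05 for *Cd44*, *Itgal* and *Itgam* but not for *Itgax*, *Icam1* and *Selplg*. The 5 members whose genotype difference was larger in lung than in PB kept an adjusted p under 0.05 in that fit, at 0.52 for *Itgax*, 0.38 for *Itgal*, 0.35 for *Icam1*, 0.33 for *Cd44* and 0.29 for *Itgam*.

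**Figure D5:**
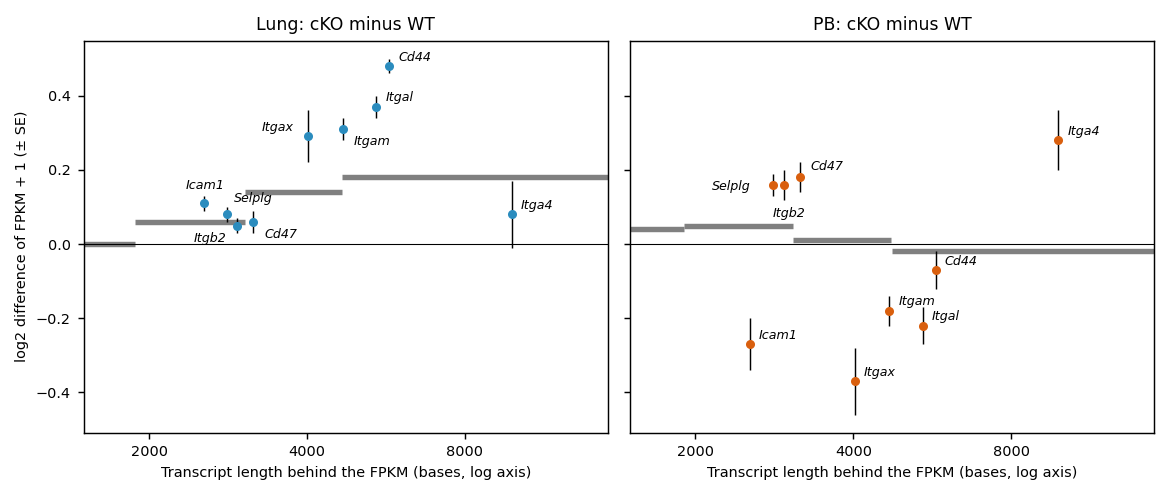
Log2 difference of FPKM + 1 (± SE) between *Piezo1*-cKO and WT neutrophils of each member against the transcript length behind its FPKM (log axis), in lung (left) and PB (right). Grey bars are the medians of all genes in quartiles of length, cut off at the ends of the axis. In lung the medians climb with length from -0.00 to 0.18, and *Cd44*, *Itgal*, *Itgam* and *Itgax* lie above them.

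Length also moved with the level of genes between the 2 experiments. Among 6859 genes, lung neutrophils of the tissue comparison minus those of WT mice in the *Piezo1* experiment gave a correlation of 0.44 with log2 length and medians of -0.36, -0.11, 0.39 and 1.09 from the shortest to the longest quartile. *Itga4* was at 31.6 ± 0.289 FPKM (SD, n = 3) in the one and 3.15 ± 0.0655 (n = 2) in the other, *Itgax* at 56.9 ± 1.81 and 8.13 ± 0.533, and *Itgal* at 278.2 ± 3.27 and 88.4 ± 0.171. The short *Icam1* was at 213.8 ± 4.93 and 213.2 ± 0.345, and *Selplg* at 465.8 ± 10.2 and 810.1 ± 9.32. The order of members by level therefore differed between experiments. In lung of the tissue comparison it was *Itgb2*, *Selplg*, *Cd44*, *Itgam*, *Itgal*, *Icam1*, *Itgax*, *Cd47* and *Itga4*, and in WT lung of the *Piezo1* experiment *Selplg*, *Itgb2*, *Cd44*, *Icam1*, *Itgam*, *Itgal*, *Cd47*, *Itgax* and *Itga4*, with no overlap of neighbours in either. In PB of the tissue comparison, *Itgam* overlapped *Cd44* and *Itgax* overlapped *Itga4*.

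Patterns over the 17 libraries were compared as the root mean square difference of log2 values centred within each experiment, among 6228 genes with a mean of at least 5 FPKM in some group. Among the members, the nearest pairs were *Itgb2* with *Cd47* (0.18), *Itgam* with *Itgb2* (0.21) and *Itgal* with *Cd44* (0.23). The nearest genes to *Icam1* in the whole table were *Gpr132* (0.11), a G-protein-coupled receptor, at 316.2 ± 5.75 FPKM in lung, 16.2 ± 1.26 in PB and 3.47 ± 0.270 in BM, and *Dusp16* (0.25), a phosphatase of MAP kinases. Nearest to *Selplg* were *Tgfbi* (0.08) and *Erp29* (0.09), to *Cd44* *Sesn2* (0.13) and *Stk40* (0.14), to *Itgb2* *Capza1* (0.05) and *Smim7* (0.05), and to *Cd47* *Atg4b* (0.09) and *Rfwd2* (0.10). For the alpha chains they were *Kif13b* (0.09) and *Atp8b4* (0.10) for *Itgam*, *Zmiz1* (0.09) and *Stk17b* (0.10) for *Itgal*, *Arl13b* (0.15) and *Taf7* (0.16) for *Itgax*, and *Oasl1* (0.09) and *Gcnt2* (0.10) for *Itga4*.

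Other genes of adhesion were followed in 5 lists. Their counts are on values that were not rescaled, so a change near the threshold can depend on the scale. With rescaled values 12.1% of all genes rose and 6.15% fell in lung against PB, and the lists were not counted anew. Of the remaining integrin subunits, 9 of 22 passed the filter on low values in lung against PB and 0 changed (median -0.14, all genes -0.54), with 5 of 9 past the adjusted p alone by limma, beside 85.5% of all genes. Against BM, *Itga5*, the fibronectin receptor chain, rose by 3.71 in lung and 3.16 in PB (41.3 ± 0.318 and 28.0 ± 1.39 FPKM against 2.24 ± 0.0774), and *Itgb7* rose by 1.62 in PB. *Itgb2l*, a gene related to *Itgb2*, fell by 5.21 in lung and by 5.07 in PB, from 337.7 ± 2.17 FPKM in BM to 8.15 ± 0.396 and 9.09 ± 1.04. How the authors' counting treated reads that match both *Itgb2l* and *Itgb2* was not given in the sources used here.

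Of the selectins and the enzymes that build their ligands, 1 of 12 tested rose and 3 fell in lung against PB (median -0.56), near the 7.75% and 19.5% of all genes. *Fut4*, a fucosyltransferase, fell by 2.10 from 12.5 ± 0.357 to 2.15 ± 0.223 FPKM, and *Gcnt1*, which builds the core of the glycans on PSGL-1, fell by 1.84 from 58.8 ± 5.71 to 15.7 ± 0.842. The others, named after their values were seen, were *Fut7*, which fell by 1.67, and *Tpst2*, a tyrosine sulfotransferase, which rose by 1.12. In the WT libraries of the *Piezo1* experiment *Fut4* fell by 2.04, *Gcnt1* fell by 1.91 and *Tpst2* rose by 1.49. In PB against BM, *St3gal6*, a sialyltransferase, rose by 1.73.

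Of 30 genes of integrin activation and signalling, 1 rose and 4 fell in lung against PB (median -0.59), both below those shares of all genes. *Cyth1*, which encodes cytohesin-1, a binding partner of the beta2 tail, rose by 2.92 from 33.2 ± 2.20 to 258.1 ± 6.69 FPKM, and by 3.15 in lung against BM. *Sipa1*, which switches off Rap1, fell by 1.61 from 88.1 ± 8.84 to 28.1 ± 1.20 FPKM, which was -1.07 relative to the median gene. Against BM, *Lims1* fell by 2.81 in lung and by 2.69 in PB. In the WT libraries of the *Piezo1* experiment *Cyth1* rose by 2.60, and *Itgb1bp1*, an inhibitor of beta1 integrin activation, fell by 1.85. Of the immunoglobulin family and junction molecules, 1 of 11 rose and 1 fell in lung against PB (again beside 7.75% and 19.5%), *Cd9* (1.51) and *Amica1* (-1.22), both named after their values were seen. *Cd177*, a surface molecule of neutrophils, fell by 4.92 in lung and by 4.04 in PB, from 1590.6 ± 23.2 FPKM in BM.

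Of the sheddases, linkers and partners of CD44 and CD47, 3 of 11 rose and 2 fell in lung against PB, beside 7.75% and 19.5% of all genes. *Thbs1*, a ligand of CD47, rose by 7.03 (adjusted p = 1.04e-09, limma) from 21.4 ± 3.09 to 2906 ± 30.3 FPKM, and *Cd93*, a surface glycoprotein, rose by 2.51 from 3.73 ± 0.435 to 25.9 ± 1.22. In the WT libraries of the *Piezo1* experiment *Thbs1* rose by 6.86 from 5.72 ± 0.294 to 778.0 ± 4.71 FPKM. By genotype, 1 of 71 tested genes of the 5 lists changed in lung and 2 of 71 in PB, near the 0.995% and 3.65% of all genes. In cKO PB, *Thbs1* fell by 1.43 to 1.50 ± 0.0899 FPKM, and *Jam3* fell by 1.18. In cKO lung the 1 gene called was *Cd48*, which rose by 1.30, from 0.153 ± 0.0917 to 1.87 ± 0.628 FPKM. *Cd48* was near the floor and passed the filter of 1 FPKM only through the cKO libraries, so it could only be called higher. *Cd48* and *Jam3* were named after their values were seen.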

How the data were processed

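RNA-Seq of 17 libraries of sorted neutrophils was used, 9 of the tissue comparison and 8 of the *Piezo1* experiment; the whole-lung libraries were not used here. The authors deposited FPKM per gene and library, computed after trimming by fastp, alignment to mm10 by HISAT2 and counting by HTSeq, in versions not given in the sources used here. Per the labels a SMARTER kit was used, whereas the methods name a VAHTS Universal V6 kit. The tables of the *Piezo1* experiment also hold a signal for each group, deposited by the authors as its mean count after division by size factors. Their fold changes, p values and q values were not used. From FPKM and that signal, whole reads were recovered for 21878 genes (100% of values within 0.000223 of a whole number), and 27 symbols turned into dates were restored by NCBI gene identifier. For a gene without reads the limit was 3 reads (0.155 to 0.312 CPM), which covers counting error only.

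Samples were grouped by the labels, which do not say whether replicates of the *Piezo1* experiment are separate mice, so its p values measure the spread between libraries, which may be technical. Each comparison was tested on its own groups with limma-trend (limma 3.58.1, R 4.3.3) on log2(FPKM + 1), among genes with FPKM of at least 1 in 3 libraries (in 2 for the *Piezo1* experiment), and p values were adjusted by Benjamini-Hochberg over all genes tested. "Rose" and "fell" mean an adjusted p under 0.05 and an absolute log2 difference over 1; the genotype by tissue interaction used the adjusted p alone, over lung and PB tables that were deposited separately. Alternatives were a pseudocount of 0.1, no filter, rescaling by the median ratio, a replicate block, all libraries in 1 fit, count tests of the recovered reads (edgeR 4.0.16, DESeq2 1.42.0), the adjusted p alone, each library left out, and, added after seeing the data, a loess correction for transcript length. The tests were tested on simulated data. Same-numbered replicates did not deviate together (correlations of -0.08 to 0.06), so the numbers were not taken as pairs.

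The members, lists, tests and motifs were chosen with earlier results of these data known. All 9 members are named in every comparison; of the other lists, the 3 largest rises and falls without overlap of the groups and with a mean of at least 5 FPKM in the higher one, and for each member the 2 genes nearest in pattern. Promoters are from RefSeq (GRCm38.p6). Figures were drawn with Python 3.11.15, numpy 2.4.6, pandas 2.3.3 and matplotlib 3.10.9.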

Additional observations from a re-analysis of the deposited data

Results flagged for a closer look

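The difference between *Piezo1*-cKO and WT neutrophils was not the same in lung and PB for 5 members, by a test of the difference itself (limma over 8 libraries, adjusted p of 0.000108 to 0.00167). The log2 difference in lung minus that in PB was 0.66 for *Itgax*, 0.59 for *Itgal*, 0.55 for *Cd44*, 0.48 for *Itgam* and 0.38 for *Icam1*. For *Itgam*, *Itgal*, *Itgax* and *Icam1*, both cKO libraries lay above both WT libraries in lung and below them in PB. The genotypes of every member lay apart in both tissues, so the lack of overlap does not mark out these genes. As 48.2% of 7560 genes passed the same test of the difference, the share of members that passed it is near the background. Groups of 2 or 3 libraries are too small for a test of outlying samples.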

How the results depend on the processing

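*Icam1* rose in lung against PB and against BM, and 6 members rose in PB against BM, under each alternative run in these comparisons. Without the fold threshold (adjusted p alone), the count of members changed went from 1 to 6 in lung against PB, 5 to 9 in lung against BM, 0 to 6 by genotype in lung, 0 to 8 by genotype in PB and 1 to 8 in lung against PB of the WT libraries of the *Piezo1* experiment. The count of members with a genotype by tissue interaction went from 5 to 8 (rescaled, DESeq2), 9 (edgeR with TMM, RLE or no filter, and corrected for length) and 0 (with a difference over 1 asked as well). Leaving out each library kept these counts, except for 7 in place of 5 in the interaction without cKO PB replicate 2, and so did the replicate block, under which the counts were 1, 5, 6, 0, 0, 1 and 5. The numbers were not taken to pair the samples.

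Small differences turned with the scale. In lung against PB, under rescaling, edgeR TMM, RLE and no filter, DESeq2 and the length correction in turn, *Itgam* went to 0.51, 0.51, 0.53, 0.45, 0.53 and 0.43, *Itgal* to 0.25, 0.25, 0.27, 0.20, 0.27 and 0.17, *Itgax* to 0.57, 0.57, 0.59, 0.52, 0.59 and 0.52, *Itgb2* to 0.20, 0.20, 0.22, 0.14, 0.22 and 0.18, and *Cd47* to 0.36, 0.37, 0.39, 0.31, 0.39 and 0.35. *Itgax* also turned without PB replicate 1 (0.02) or 2 (0.05), and ranged from -0.19 to 0.05 over all libraries left out in turn. In the WT libraries of the *Piezo1* experiment, in the same order, *Itgam* went to 0.37, 0.36, 0.39, 0.33, 0.39 and 0.24, *Itgal* to 0.36, 0.35, 0.38, 0.32, 0.38 and 0.21, *Itgax* to 0.52, 0.57, 0.59, 0.54, 0.59 and 0.49, and *Itgb2* to 0.42, 0.41, 0.44, 0.38, 0.44 and 0.36, while *Itga4* was 0.01 with RLE and DESeq2. In lung against BM, *Cd47* was 0.02 rescaled and 0.03 with RLE and DESeq2, and *Itgb2* 0.01 with RLE and DESeq2. By genotype in lung, *Selplg* went to -0.03 or -0.04 (-0.00 corrected for length), *Itgb2* to -0.06 (-0.04), *Itga4* to -0.01 or -0.00 (-0.07), *Cd47* to -0.06 (-0.05) and *Icam1* to -0.00. In lung against BM, 6 members rose and 0 fell under these settings, in place of 4 and 1. These settings remove a shift of the median gene between groups; whether that shift is technical was not tested. With 2 libraries per group, standard errors in the *Piezo1* experiment rest on variance shared across genes, and reads without molecular identifiers are not independent molecules.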
